A study of Mus musculus with 6 samples.

Results

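The collagen chain genes are the 42 genes, of 25939 listed, whose symbol is Col, a type number, the letter a and a chain number. They were read from mRNA libraries of cultured vascular smooth muscle cells of mouse aorta, 3 libraries being labelled Control and 3 TMAO. The TMAO cells received trimethylamine N-oxide, a metabolite derived from gut bacterial products, for 48 h. No dose, strain, sex or age of the mice is stated in the labels, and Control is not described further. They also do not say whether the 3 libraries of a group came from separate cultures or animals, so every p-value measures the spread between these libraries, which may be technical.

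Collagens are secreted as trimers in which each chain winds around its partners through a repeat with glycine at regular spacing, 1 residue in 3. Fibrillar collagens form the load-bearing fibers of the artery wall, type IV collagens form the sheet of the basement membrane around each smooth muscle cell, and FACIT collagens (fibril-associated collagens with interrupted triple helices) sit on the surface of the fibers. Beaded-filament collagens (type VI), short-chain network collagens (types VIII and X), multiplexins (types XV and XVIII), the anchoring fibril collagen (type VII), transmembrane collagens and Col28a1 make up the rest. The 42 genes comprised 11 fibrillar, 6 basement membrane, 9 FACIT, 6 beaded-filament, 3 short-chain, 2 multiplexin, 1 anchoring fibril, 3 transmembrane genes and Col28a1.

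The classes differ in how long the glycine repeat runs without a break, which is visible in the coding sequences. The following stretches, from the GENCODE M21 transcripts on mm10, are shown because they belong to a fibrillar, a basement membrane and a FACIT chain described below. Glycine codons are in capitals and all other codons in lower case. The Col1a1 stretch (codons 168 to 182) opens the longest run, and the Col4a1 (codons 1344 to 1364) and Col12a1 (codons 2892 to 2912) stretches show where the longest run breaks off.
Col1a1: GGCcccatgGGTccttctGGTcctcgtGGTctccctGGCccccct
Col4a1: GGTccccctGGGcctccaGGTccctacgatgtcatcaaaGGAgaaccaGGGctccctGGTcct
Col12a1: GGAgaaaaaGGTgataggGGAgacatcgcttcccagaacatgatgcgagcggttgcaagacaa

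On mm10, in Col1a1 (chromosome 11, 94936224 to 94953042, plus strand) a glycine codon opened 338 consecutive triplets of codons. The longest run was 216 to 344 triplets in the 11 fibrillar genes, with 2 or 3 runs of at least 5 triplets each. In the 6 basement membrane genes the longest run was 39 to 66 triplets, and each held 22 to 27 such runs. Col4a1 (chromosome 8, 11198423 to 11312826, minus strand) had 22 runs, the longest of 40 triplets. In the stretch above, its repeat resumed after a short interruption. The 9 FACIT genes had a longest run of 32 to 113 triplets, and in Col12a1 (chromosome 9, 79598991 to 79718831, minus strand) the runs covered 8.22% of 3065 codons.

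**Figure D1:**
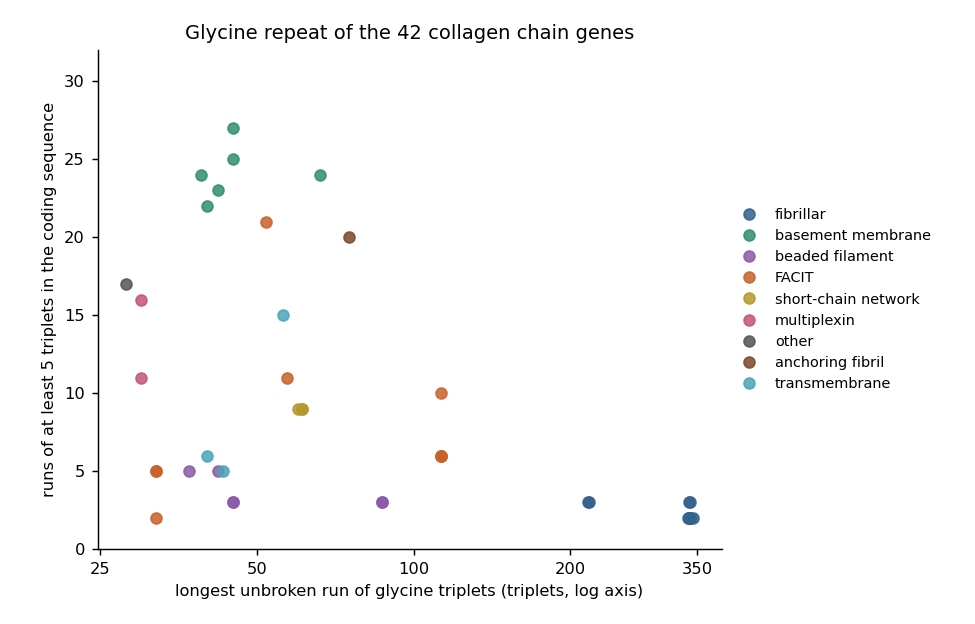
Each point is 1 of the 42 collagen chain genes, with the longest unbroken run of glycine triplets in its coding sequence on the x axis (triplets, log axis) and the number of runs of at least 5 triplets on the y axis; some points coincide. Fibrillar genes lie at the right, at 216 triplets or more with 2 or 3 runs, and basement membrane genes at the upper left, with 22 to 27 runs.

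Library totals implied by the values were 14991252 to 16806728 reads. Of 10 smooth muscle markers, 7 were measured at 1 FPKM or more on average (FPKM is reads scaled to exon length and library size), the exceptions being Tagln, Cnn1 and Myh11 of the contractile apparatus. The smooth muscle markers summed to 786 to 789 FPKM in Control and 773 to 791 FPKM in TMAO, most of it Acta2 (487 and 483 FPKM). Fibroblast markers were also present, at 497 to 539 and 500.0 to 529.8 FPKM in sum, most of it Ly6a (415 and 410.0 FPKM), with Clec3b, Pi16 and Scara5 under 1 FPKM. Among them Pdgfra stood at 26.8, 27.6 and 25.2 FPKM in Control and 25.2, 22.6 and 23.5 FPKM in TMAO (log2 fold change -0.15, adjusted p = 0.293, limma), with Control 2 highest and TMAO 2 lowest, and Lum had -0.19 (adjusted p = 0.418). The other tested fibroblast markers had 0.06 (Dpt), 0.05 (Dcn), 0.0066 (Gpx3), 0.0036 (Cd34) and -0.02 (Ly6a) on the log2 scale. Across the 7 tested fibroblast markers the median was thus 0.0036, with 3 of them under 0. In such bulk RNA a smaller number of cells of a type and less RNA per cell cannot be told apart. Macrophage markers summed to 81.2 to 101 and 79.8 to 87.4 FPKM, most of it Lyz2 (77.0 and 70.0 FPKM), with Adgre1, Csf1r, Fcgr1, Itgam, Mrc1 and Ptprc under 1 FPKM. Endothelial markers summed to 15.6 to 17.1 and 13.1 to 13.5 FPKM, nearly all of it Emcn (15.8 and 12.3 FPKM), while Pecam1, Cdh5, Kdr, Tek, Vwf, Egfl7 and Erg were under 1 FPKM. The nuclear RNAs Malat1, Neat1, Xist, Meg3 and Kcnq1ot1 summed to 91.0 to 132 FPKM in Control and 179 to 255 FPKM in TMAO, with no overlap. Most of this was Malat1 (90.8 and 185 FPKM). Xist (13.5 and 25.7 FPKM) and Neat1 (3.07 and 4.97 FPKM) also had no overlap, whereas Meg3 and Kcnq1ot1, under 1 FPKM, overlapped. The part of these RNAs and markers in the collagen values was not tested.

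Collagen genes took 0.479% to 0.648% of the reads of a library. Of the 42 genes, 31 had reads in all 6 libraries and 11 were listed at 0 in at least 1 library. Expression was concentrated in a few chains. Col1a1, Col1a2, Col4a1 and Col4a2 made up 67.1% of the summed collagen FPKM, and the 10 most abundant genes 90.6%. The fibrillar class held 57.0% ± 0.386 of the sum in Control (SD, n = 3) and the basement membrane class 26.6% ± 0.384, followed by the beaded filament class with 9.52% ± 0.111. These shares rest on the gene lengths behind the deposited values, and the SD does not cover the choice of length.

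**Figure D2:**
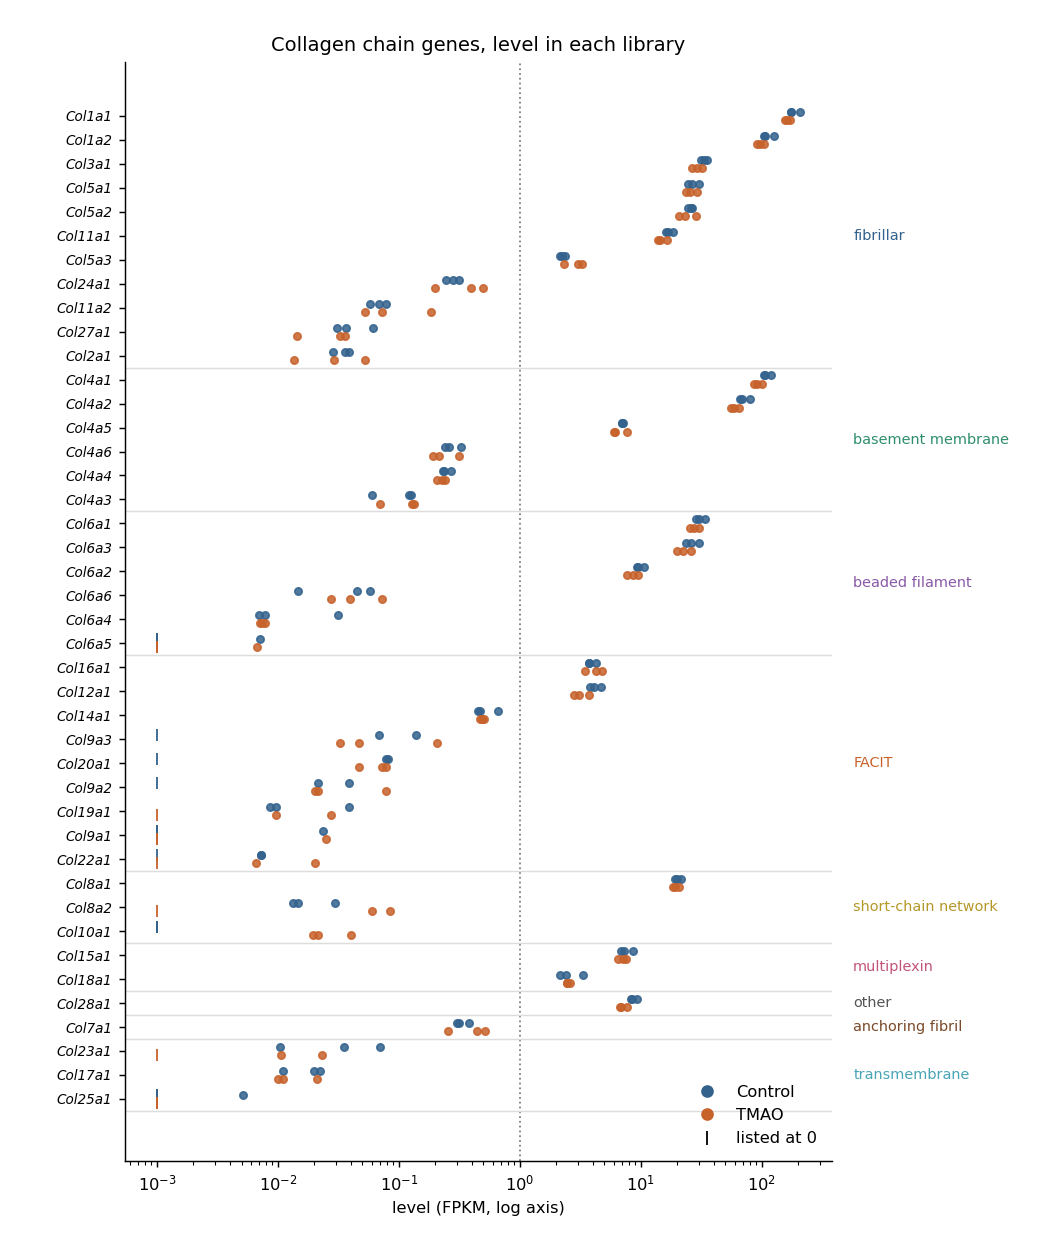
Level in FPKM (log axis) of each of the 42 collagen chain genes in the 3 Control and 3 TMAO libraries, grouped by class; small bars at the left mark libraries listed at 0, and the dotted line is at 1 FPKM. The 19 tested genes lie right of the line and the other 23 left of it.

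The comparison asks whether collagen expression differed between TMAO and Control. Most abundant collagen genes stood lower in TMAO, with 17 of 19 mean FPKM differences between -3.52% and -23.3%, and none passed the test over all genes. Tests were run with limma on log2(FPKM + 1) for the 19 genes that reached 1 FPKM in 3 or more libraries. Of these, 0 passed at an adjusted p of 0.05, where 0.181% of the 11062 tested genes passed. Voom on recovered reads also called 0, of 18 collagen genes. At an unadjusted p of 0.05, 8 of 19 were lower (4.48% of all tested genes were) and 1 was higher (8.61% of all). In the voom fit these counts were 11 and 1, where 4.60% of all genes in that fit were lower and 9.56% higher. The log2 fold change was below 0 for 17 of 19 genes, against 40.0% of all tested genes. The median over the 19 genes was -0.16, beside 0.02 over all tested genes, and the range was -0.30 to 0.24. The 3 TMAO libraries lay below all Control libraries for 6 of 19 genes (6.23% of all tested genes) and above them for 0 of 19 (12.4% of all).

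The difference was smaller without 1 library on each side. Control 2 was the highest Control library for 19 of 19 tested genes, and TMAO 2 the lowest TMAO library for 16 of 19. In those 16 genes, higher and lower in TMAO alike, TMAO 1 stood above TMAO 3 and TMAO 3 above TMAO 2, an order found in 31.9% of all tested genes. Summed over the 42 genes, collagen reached 674, 777 and 670 FPKM in Control 1, 2 and 3, against 672, 577 and 613 FPKM in TMAO 1, 2 and 3. TMAO 1 thus lay between Control 3 and Control 1. The means were 707 ± 60.9 and 621 ± 47.8 FPKM, a difference of -12.2%. Without replicate 2 of both groups the means were 672 and 642 FPKM, 12 of 19 genes were below 0, and their log2 fold changes had a median of -0.04, beside 0.04 over all tested genes. At an unadjusted p of 0.05, 2 genes were then lower (Col28a1 and Col4a1) and 2 higher (Col5a3 and Col16a1), with limma, where 4.08% of all tested genes were lower and 10.2% higher in the same fit. Without Control 2 alone the median was -0.10, with 4 genes lower and 1 higher, and without TMAO 2 alone it was also -0.10, with 4 lower and 1 higher. The opposite held without TMAO 1, where the median was -0.22, 18 of 19 genes were below 0 and 13 were lower and 0 higher. Without Control 1 or Control 3 it was -0.20 or -0.19, with 9 lower in each case, and without TMAO 3 it was -0.17, with 5 lower. The fits with 1 library left out had 3.52% to 4.88% of all tested genes lower and 6.03% to 9.98% higher. Over all tested genes the median deviation of Control 2 from the gene means was 0.0016 on the log2 scale and that of TMAO 2 was -0.012, whereas over the collagen genes they were 0.21 and -0.18.

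**Figure D3:**
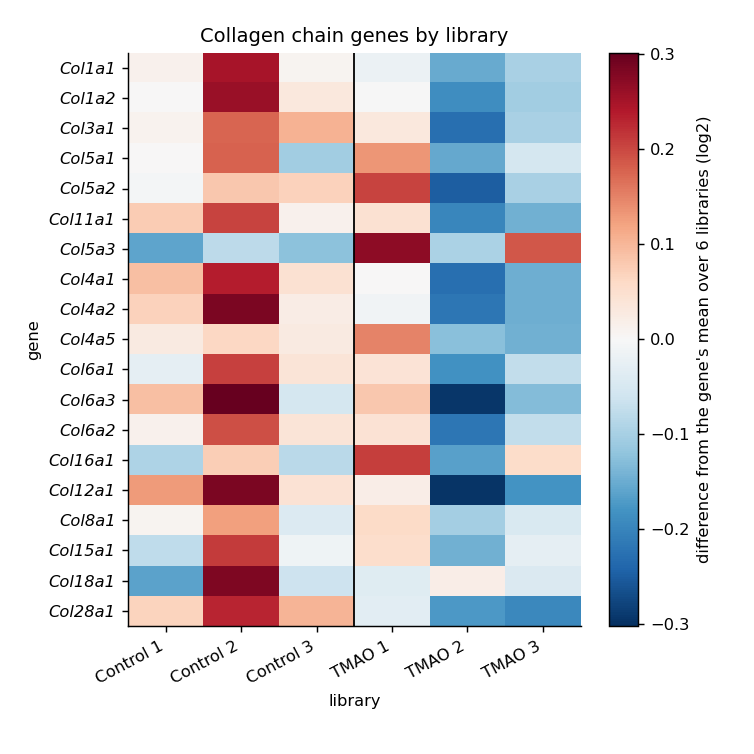
Difference of each tested collagen gene in each library from the gene's mean over the 6 libraries, on the log2(FPKM + 1) scale, red above and blue below the mean. The Control 2 column is red for 18 of 19 genes and the TMAO 2 column is above the mean for 1 gene.

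Among the fibrillar genes, type I chains were the most abundant. Col1a1, which codes for the α1 chain of type I collagen, stood at 175, 206 and 174 FPKM in Control 1, 2 and 3, against 171, 156 and 162 FPKM in TMAO 1, 2 and 3. All 3 TMAO libraries were below the Control libraries, TMAO 1 narrowly so. The difference on the log2 scale was -0.18 ± 0.068 (SE; adjusted p = 0.306, limma). Col1a2, the α2 chain (chromosome 6, 4504814 to 4541544, plus strand), stood at 105, 125 and 107 FPKM and at 104, 91.6 and 97.2 FPKM. The groups did not overlap, but Control 1 and TMAO 1 were nearly level. Its log2 fold change was -0.20 ± 0.075 (adjusted p = 0.318, limma). Without Control 2 the values were -0.10 for Col1a1 and -0.11 for Col1a2, with unadjusted p = 0.093 and 0.087 (limma), and without replicate 2 of both groups they were -0.07 for each.

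Col3a1 (chromosome 1, 45311538 to 45349706, plus strand), the chain of type III collagen, which mixes with type I in distensible tissues, stood at 31.3, 35.2 and 33.4 FPKM in Control and 31.7, 26.4 and 28.9 FPKM in TMAO. TMAO 1 was above Control 1, so the groups overlapped, and the log2 fold change was -0.19 (adjusted p = 0.277, limma), or -0.09 without replicate 2 of both groups. Type V chains start the assembly of type I fibrils. Col5a1 stood at 26.4, 30.0 and 24.5 FPKM and at 29.0, 23.6 and 25.4 FPKM. Col5a2 stood at 24.7, 26.3 and 26.1 FPKM and at 28.7, 20.7 and 23.1 FPKM. Their groups overlapped widely, with log2 fold changes of -0.05 (95% interval -0.26 to 0.16) and -0.10 (-0.35 to 0.16). These intervals include changes of the size seen for type I chains. Col11a1 (chromosome 3, 114030540 to 114220718, plus strand), a chain of type XI collagen best known from cartilage, was the next fibrillar gene. It stood at 16.8, 18.5 and 16.0 FPKM in Control, against 16.4, 13.7 and 14.3 FPKM in TMAO, which is -0.20 on the log2 scale (adjusted p = 0.303, limma), or -0.09 without replicate 2 of both groups. Of the 6 cartilage markers matched, 5 were under 1 FPKM. The exception was the transcription factor gene Sox9, at 5.83 and 6.42 FPKM, and the list summed to 6.54 to 7.23 FPKM in Control and 7.29 to 7.85 FPKM in TMAO.

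Col5a3 (chromosome 9, 20770050 to 20815067, minus strand), a further type V chain, was the exception in direction among fibrillar genes and is singled out after its values were seen. It stood at 2.16, 2.34 and 2.24 FPKM in Control and at 3.25, 2.30 and 3.02 FPKM in TMAO. TMAO 1 and TMAO 3 were above all Control libraries, and TMAO 2 lay between Control 3 and Control 2. The log2 fold change was 0.24 ± 0.099 (adjusted p = 0.338, limma). With 1 library left out it ran from 0.17 (without TMAO 1) to 0.35 (without TMAO 2), and its unadjusted p was above 0.05 without Control 1, Control 3, TMAO 1 or TMAO 3. Col24a1, below the filter and singled out in the same way, stood at 0.315, 0.244 and 0.281 FPKM and at 0.492, 0.197 and 0.394 FPKM. It was not tested, and TMAO 1 was its highest and TMAO 2 its lowest library. The remaining fibrillar genes Col11a2, Col27a1 and Col2a1, the last the main collagen of cartilage, had under 10 reads per library on average.

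The basement membrane chains had the lowest median, -0.25, of the classes with more than 1 tested gene. Col4a1, whose product pairs with that of Col4a2 in the common form of type IV collagen, stood at 107, 118 and 103 FPKM in Control and at 100.1, 85.3 and 90.3 FPKM in TMAO. This gave -0.25 ± 0.068 on the log2 scale (adjusted p = 0.180, limma), and voom on recovered reads gave an adjusted p = 0.0503. Col4a2 (chromosome 8, 11312805 to 11449287, plus strand) stood at 68.5, 79.6 and 66.2 FPKM and at 64.6, 55.9 and 58.7 FPKM, with a log2 fold change of -0.25 ± 0.077 (adjusted p = 0.229, limma). For both genes every TMAO library was below every Control library. Without replicate 2 of both groups the log2 fold changes were -0.14 for Col4a1 and -0.13 for Col4a2. Col4a5, on the X chromosome, stood at 6.92, 7.11 and 6.92 FPKM and at 7.62, 6.12 and 6.03 FPKM. TMAO 1 was its highest library, and the log2 fold change was -0.08 (adjusted p = 0.742, limma). Col4a3 and Col4a4, chains of the kidney filter, and Col4a6, a partner of the Col4a5 chain, averaged 0.274 FPKM or less in either group and were not tested.

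Expressed as a share of all collagen FPKM in a library, which does not depend on library scaling, the basement membrane class took 27.1%, 26.4% and 26.4% in Control 1, 2 and 3, against 25.7%, 25.6% and 25.4% in TMAO 1, 2 and 3. The fibrillar class took 56.6%, 57.1% and 57.3% and then 57.4%, 57.9% and 57.8%. The short-chain class, nearly all of it Col8a1, took 2.95%, 2.78% and 2.87% and then 3.07%, 3.20% and 3.13%. With the deposited lengths the groups did not overlap in these 3 classes, though the fibrillar values of Control 3 and TMAO 1 were close. All class shares depend on the length that divides the reads of each gene, and they were not recomputed with other lengths. Of all 9 classes, 2 had a lower share without overlap (basement membrane and Col28a1 alone) and 2 a higher one. The shares of the other 5 overlapped, as in the beaded filament class with 9.51%, 9.64% and 9.42% and then 9.76%, 9.22% and 9.58%. In the basement membrane share, Control 2 was next to Control 3 and TMAO 2 next to TMAO 1. The shares of a library add up to the whole, so a lower share of 1 class goes with higher shares elsewhere. As summed FPKM, the fibrillar and short-chain classes also stood lower in TMAO, with differences of -11.1% and -4.13%. The basement membrane class had -15.7%. No test was made of these sums and shares, because the classes were chosen with earlier results known.

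Col4a1 and Col4a2 lie head to head, and their annotated start sites are 21 bases apart. The stretch common to both 300-base promoter windows of RefSeq (GRCm38.p6, chr8:11312777-11312854, plus strand, 78 bases) is shown because these neighbours varied together across the libraries. The capitals mark a GC box, GGGCGG, the motif bound by Sp1-type factors.
Col4a1 and Col4a2: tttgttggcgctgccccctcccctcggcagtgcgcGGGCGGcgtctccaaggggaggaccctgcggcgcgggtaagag

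RefSeq windows, running from 250 bases before to 50 bases after a start site, were matched for 34 of the 42 genes, giving 37 windows. GGGCGG occurred on either strand in 23 of them (62.2%), against 35.7% of all 32851 windows. CCAAT occurred in 35.1% against 37.4% and TATAAA in 10.8% against 13.6%, counted in the same way. Without a known strand setting, reads of overlapping genes on opposite strands cannot be told apart. Such overlap covered 0.295% of the exon bases of Col4a1 and 0.982% of those of Col4a2. Other neighbours among the collagen genes were Col4a3 and Col4a4, head to head with start sites 72 bases apart, Col4a5 and Col4a6, also head to head at 1309 bases, and Col3a1 and Col5a2, tail to tail with 24614 bases between them. Col6a1 and Col6a2 lie in the same orientation with 85161 bases between them.

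Type VI collagen forms beaded filaments next to cells from the products of Col6a1, Col6a2 and a longer partner chain such as that of Col6a3. All 3 tested genes were below 0, with overlapping groups. Col6a1 stood at 28.6, 33.8 and 30.0 FPKM in Control and 30.0, 25.6 and 27.7 FPKM in TMAO, and Col6a2 at 9.25, 10.6 and 9.43 FPKM and 9.47, 7.74 and 8.65 FPKM. Their log2 fold changes were -0.14 and -0.16 (limma adjusted p = 0.446 and 0.416). They were -0.08 and -0.11 without Control 2, -0.09 and -0.10 without TMAO 2, and -0.02 and -0.04 without replicate 2 of both groups. Col6a3 stood at 26.2, 30.5 and 23.6 FPKM and at 26.0, 19.8 and 22.3 FPKM. It had one of the wider spreads, with a log2 fold change of -0.23 ± 0.12 (adjusted p = 0.489, limma). Without replicate 2 of both groups its log2 fold change was -0.04. Col6a4, Col6a5 and Col6a6 had 10 reads or fewer in every library.

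In the FACIT class 2 of 9 genes were tested, with opposite signs. Col12a1, whose product bridges fibrils in tissues under load, stood at 4.08, 4.66 and 3.79 FPKM in Control and at 3.72, 2.79 and 3.11 FPKM in TMAO. No TMAO library reached the lowest Control library, and Control 3 and TMAO 1 were the nearest. The log2 fold change of -0.30 ± 0.097 was the lowest among the tested collagen genes (adjusted p = 0.230, limma), and it was -0.17 without replicate 2 of both groups. Col16a1 stood at 3.71, 4.29 and 3.75 FPKM and at 4.81, 3.48 and 4.22 FPKM. Its groups overlapped, with TMAO 1 highest and TMAO 2 lowest, and its log2 fold change was 0.07 (adjusted p = 0.824, limma). Col14a1 stood at 0.529 ± 0.118 and 0.486 ± 0.0217 FPKM (SD, n = 3), below the filter. The type IX genes Col9a1, Col9a2 and Col9a3, partners of type II collagen in cartilage, and Col19a1, Col20a1 and Col22a1 had under 10 reads per library on average.

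Col28a1 (chromosome 6, 7997808 to 8192617, minus strand), a gene best known from peripheral nerve, had the smallest unadjusted p among the collagen genes. It stood at 8.27, 9.37 and 8.51 FPKM in Control and at 7.65, 6.85 and 6.73 FPKM in TMAO, from 495 to 701 reads. The groups did not overlap, and the log2 fold change was -0.27 ± 0.071 (adjusted p = 0.164, limma). It was -0.20 without replicate 2 of both groups, and the range over all 15 alternatives was -0.32 to -0.20. Col28a1 was the tested collagen gene whose spread within groups (6.83% of its mean) was under 2 times the counting error (4.05%). In the other 18 genes the spread was 6.11% to 16.8% and above 2 times the counting error.

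Col8a1, the α1 chain of type VIII collagen, which is made by activated smooth muscle and endothelium, stood at 19.9, 21.6 and 19.2 FPKM in Control and at 20.6, 18.3 and 19.1 FPKM in TMAO. The groups overlapped, with a log2 fold change of -0.06 (95% interval -0.20 to 0.08). Its partner Col8a2 had at most 6 reads in a library. Col10a1, the type X gene of growth plate cartilage, was listed at 0 in the 3 Control libraries and had at most 2 reads in TMAO. Col15a1 and Col18a1 code for the multiplexins, whose end domains are released as endostatin-type fragments. Col15a1 stood at 6.83, 8.55 and 7.19 FPKM and at 7.57, 6.47 and 7.10 FPKM. Col18a1 stood at 2.16, 3.30 and 2.39 FPKM and at 2.45, 2.59 and 2.43 FPKM. Control 2 was the highest library for both, the other libraries overlapped, and the log2 fold changes were -0.08 and -0.04. Without Control 2 they were 0.0048 and 0.09. Col7a1, the anchoring fibril gene of skin, singled out in the same way, stood at 0.304, 0.381 and 0.312 FPKM and at 0.518, 0.256 and 0.441 FPKM, with overlapping groups. The transmembrane genes Col17a1, Col23a1 and Col25a1 had at most 6 reads in a library.

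**Figure D4:**
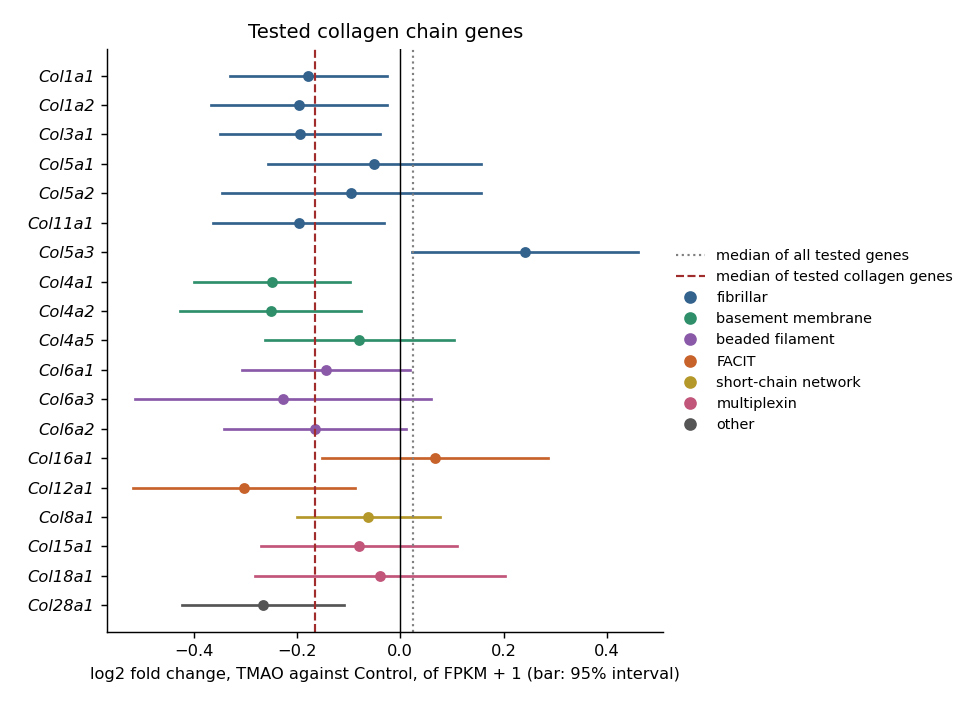
Log2 fold change of FPKM + 1, TMAO against Control, for the 19 tested collagen genes, with 95% intervals from limma that are not adjusted for the number of genes, colored by class. The dashed line at -0.16 is their median and the dotted line at 0.02 the median of all 11062 tested genes; Col16a1 and Col5a3 are the 2 genes above 0.

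Chains that assemble together were compared as ratios within each library, which do not depend on library scaling. The Col1a1 to Col1a2 ratio was 1.67, 1.64 and 1.63 in Control 1, 2 and 3, against 1.64, 1.70 and 1.67 in TMAO 1, 2 and 3. Its spread over the 6 libraries was 1.57%, where the spread of Col1a1 itself was 9.60% and the counting error of the ratio 1.02%. The Col4a1 to Col4a2 ratio was 1.56, 1.48 and 1.56 and then 1.55, 1.53 and 1.54, a spread of 1.84% (counting error 1.52%). The Col6a1 to Col6a2 ratio was 3.09, 3.18 and 3.18 and then 3.17, 3.31 and 3.20, a spread of 2.18%, below its counting error of 3.64%. These ratios ranked 1, 2 and 4 for low spread among the 171 pairs of tested collagen genes, whose median was 7.68%. Rank 3 was Col11a1 to Col4a1, chains of different trimers, at 2.03%. The members of a pair share a library, and pairs of abundant genes have less counting error.

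The other ratios varied more, ranking 37 (Col3a1 to Col1a1), 77 (Col6a3 to Col6a1) and 83 (Col5a1 to Col5a2) of the 171 pairs. The Col6a3 to Col6a1 ratio was 0.916, 0.901 and 0.787 in Control and 0.866, 0.775 and 0.807 in TMAO, a spread of 7.16%. The Col5a1 to Col5a2 ratio was 1.07, 1.14 and 0.939 and then 1.01, 1.14 and 1.10, a spread of 7.63%. The Col3a1 to Col1a1 ratio had a spread of 4.79%. None of the 6 ratios passed a two-sided exact permutation test between the groups. The smallest exact p was 0.3, for Col6a1 to Col6a2 (log2 difference 0.03) and Col6a3 to Col6a1 (-0.09), and all 6 adjusted p-values were 0.84 or more. With 3 libraries against 3 this test cannot go below 0.10. The Col8a1 to Col8a2 ratio was not computed because Col8a2 was listed at 0 in TMAO 1.

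**Figure D5:**
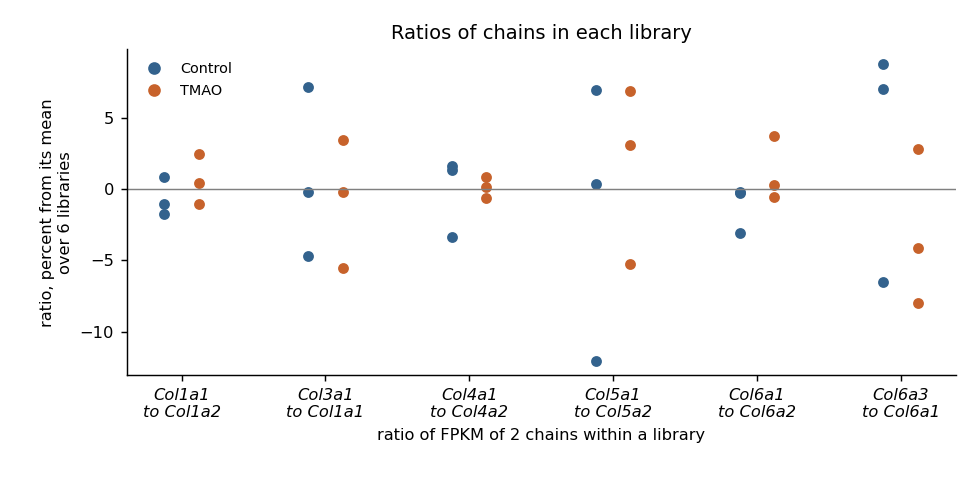
Each point is the ratio of the FPKM of 2 collagen chains in 1 library, as percent difference from the mean ratio over the 6 libraries (Control blue, TMAO orange). The Col1a1 to Col1a2 and Col4a1 to Col4a2 ratios are the most tightly grouped, and the Control and TMAO points overlap in all 6 ratios.

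The order of the levels depended on the length that divides the reads. The deposited values rest on all exons annotated for a gene, 12426 bases for Col1a2 but 6563 for Col1a1, whereas the transcripts with the longest coding sequence have 5348 and 5930 bases. Scaled to these transcripts, Col1a2 stood at 261 ± 26.6 and Col1a1 at 205 ± 20.1 in Control (SD, n = 3), on the FPKM scale of that transcript. Their order was then the reverse of the deposited one, and the Col1a1 to Col1a2 ratio was 0.785 in Control and 0.795 in TMAO. The Col6a1 to Col6a2 ratio went from 3.15 to 1.60 in Control by the same change, and that of Col5a1 to Col5a2 from 1.05 to 0.733. For Col5a1 the annotated length did not give whole reads, so its rescaled level is uncertain. Within a gene, the ratio of TMAO to Control FPKM is not touched by a change of length. The log2 fold changes of FPKM + 1 and the 1 FPKM filter do depend on it, and they were not refitted to the rescaled values. Class shares and summed FPKM add up genes of different lengths, so they depend on it as well. They were not recomputed, and whether the class shares stay without overlap at other lengths was not tested.

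The machinery that makes, joins, binds and degrades collagen was read from lists totalling 56 genes, of which 43 were tested. None passed over all genes in the limma fit, 13 were lower and 2 higher at an unadjusted p of 0.05, and 28 were below 0, with a median log2 fold change of -0.08. Over all tested genes 4.48% were lower, 8.61% higher and 40.0% below 0. Without Control 2, and likewise without TMAO 2, 7 of the 43 were lower and 2 higher. In the other fits with 1 library left out, 8 to 16 were lower and 2 higher. The fits with 1 library left out had 3.52% to 4.88% of all tested genes lower and 6.03% to 9.98% higher. Without replicate 2 of both groups 5 of the 43 were lower and 4 higher, where 4.08% of all tested genes were lower and 10.2% higher. Voom on recovered reads called 3 of the pathway genes, all lower, Plod1, Loxl1 and Mrc2, with adjusted p-values of 0.0320, 0.0352 and 0.0424. Over all genes it called 101 of 10893. Of the 18 tested genes of hydroxylation, folding and secretion, 6 were lower and 1 higher at an unadjusted p of 0.05 (4.48% and 8.61% of all tested genes). Plod1, a lysyl hydroxylase, stood at 14.0 ± 0.642 and 11.5 ± 0.420 FPKM in Control and TMAO (SD, n = 3; log2 fold change -0.26, adjusted p = 0.114, limma). Plod3, another lysyl hydroxylase, had -0.30 (adjusted p = 0.166), and Ppib, a prolyl isomerase of the collagen folding complex, had 0.20 (adjusted p = 0.114).

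Of the 11 tested genes of cross-linking and propeptide removal, 5 were lower at an unadjusted p of 0.05 and 0 higher, beside 4.48% and 8.61% of all tested genes. Loxl1 and Loxl4, lysyl oxidase family genes, had log2 fold changes of -0.22 and -0.27, and Adamts2, the procollagen N-proteinase gene, had -0.20 (limma adjusted p = 0.101, 0.207 and 0.250). Among 6 tested collagen receptor genes, 2 were lower at that level (4.48% of all tested genes). The endocytic receptor gene Mrc2 stood at 27.8 ± 2.43 and 22.7 ± 1.49 FPKM (-0.28, adjusted p = 0.143, limma), the kinase receptor gene Ddr1 had -0.22 (adjusted p = 0.260) and the integrin gene Itga11 -0.09 (adjusted p = 0.818). Among 8 tested genes of collagen breakdown and its inhibitors, 1 was higher (8.61% of all tested genes) and 0 lower. This was the cathepsin gene Ctsk, at 112 ± 1.43 and 125 ± 3.29 FPKM (0.15, adjusted p = 0.164, limma). The protease inhibitor gene Timp2 had -0.11 (adjusted p = 0.442) and the membrane collagenase gene Mmp14 -0.13 (adjusted p = 0.460).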

How the data were processed

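The authors deposited, for each library, gene-level FPKM values beside identifiers and symbols. Per the labels' protocols, Trizol was used for RNA extraction and a stranded mRNA kit for the libraries. Per the submitters' processing notes, Trimmomatic, HISAT2, Cufflinks, HTSeq and the build mm10 were used, with no word on the strand setting of the counting or the annotation release. The header of Control 1 spells the unit PKM.

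Exon lengths from GENCODE M21 covered 25885 identifiers, and with 1 total per library 98.5% of these (41 of 42 collagen genes, all but Col5a1) gave whole reads within 0.01 reads in all 6 libraries. Genes reaching 1 FPKM in 3 or more libraries were tested with limma 3.58.1 in R 4.3.3 (trend, robust) on log2(FPKM + 1), which understates the change of low genes, with Benjamini-Hochberg adjustment over all tested genes. Exact permutation tests were used for 6 chain ratios. The test foreseen for the summed collagen FPKM is not given. Members, lists and classes were chosen with earlier results of these data known. The rescaling to transcript length was added after seeing the data. Per-library values are given for the 10 most abundant collagen genes, the 6 with the smallest p and all tested genes of classes with under 4 tested. Of each pathway list the 3 genes with the smallest p are named, and marker genes are named by level, chosen after their values were seen.

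In simulated data with 10929 genes tested, the fit recovered 20.0% of genes changed 1.25-fold, 93.2% at 1.5-fold and 98.0% at 2-fold. These were genes of at least 50 reads with the same spread in every gene, and 10.9% of all calls were unchanged genes. The spread of tested collagen genes within groups ran from 6.11% to 16.8% of the mean, so these recovery values need not hold for them. No library repeated another of its group (chi-square per degree of freedom 2.89 to 6.84). Replicate numbers were not taken as pairs, though with 3 libraries per group the correlations given below cannot exclude pairing. Python 3.11.15 with pandas 2.3.3 and matplotlib 3.10.9 made the tables and figures.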

Additional observations from a re-analysis of the deposited data

How the results depend on the processing

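Under 15 alternatives, 1 of them added after seeing the data (without replicate 2 of both groups), 0 collagen genes passed the threshold. The count over all genes, 20, became 0 with no filter, 101 with voom on recovered reads, 11 to 56 with 1 library left out (11 without Control replicate 3, 12 without TMAO replicate 1, 56 without TMAO replicate 2) and 95 without replicate 2 of both groups. Among the collagen pathway genes the count of 0 became 3 with voom. With no filter 28 of 42 collagen genes were below 0, with a median log2 fold change of -0.0220, and without replicate 2 of both groups the median was -0.0411. Values that turned in sign with 1 library left out were those of Col15a1 (-0.139 to 0.00482), Col16a1 (-0.0209 to 0.166), Col18a1 (-0.130 to 0.0917), Col5a1 (-0.129 to 0.0264), Col5a2 (-0.221 to 0.00493), the integrin gene Itga11 (-0.209 to 0.0289), the Col3a1 to Col1a1 ratio (-0.0606 to 0.0236), the Col4a1 to Col4a2 ratio (-0.0194 to 0.0165) and the Col5a1 to Col5a2 ratio (-0.0309 to 0.110). Without replicate 2 of both groups, Col15a1 had 0.0575, Col18a1 0.0712, Col5a1 0.0909, Col5a2 0.0213, Col8a1 0.0213, Itga11 0.122 and the Col4a1 to Col4a2 ratio -0.0140. The causes were not tested. Of 464 log2 fold changes of the 19 tested collagen and 12 named pathway genes under the alternatives, 14 turned in sign and 447 kept sign and side of the threshold. The others were those of Plod1, Loxl1 and Mrc2 with voom, at -0.283, -0.225 and -0.287.

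Same-numbered libraries had correlations of their deviations from the group means of -0.0858, -0.104 and 0.0555, and not every library correlated best with its own number, so the numbers were not taken as pairs. With the replicate block, 22 genes and 0 collagen genes passed, and 7 collagen genes were lower and 1 higher at an unadjusted p of 0.05. In that fit 3.76% of all tested genes were lower and 6.95% higher.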
